A study of Mus musculus with 4 samples.

Results

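The 10 genes described here encode kinesins of axonal transport: Kif1a, Kif1b, Kif1c, Kif3a, Kif3b, Kif5a, Kif5b, Kif5c, Kif21a and Kif21b. Their transcripts were examined for binding by MOV10, an RNA helicase known as a partner of the Argonaute silencing proteins, in N2A cells, a mouse neuroblastoma line. A MOV10 peak was counted for a gene when its midpoint lay within the gene's RefSeq span in the mouse genome build GRCm38. Of the 12236 peaks in the list, 65 (0.531%) met this rule. The name of the line is that of the labels, and the peak list gives no expression level by which it could be checked. Of 9 neuroblastoma lineage markers 2 held a peak, Ret and Gata2, which says nothing of the expression of the others.

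The study measured RNA bound by MOV10 with eCLIP, in which ultraviolet light fixes proteins to the RNA they touch, MOV10 is immunoprecipitated with an antibody, and the attached RNA fragments are sequenced beside an input. The series comprised 2 immunoprecipitate and 2 input libraries from N2A cells kept in serum-containing medium, with no other treatment or genotype named. The name of the list marks an irreproducible discovery rate (IDR) step, and the list has no header. For each peak it gave 1 value read here as −log10 p and 1 read as log2 fold enrichment for immunoprecipitate against input. The list holds no value per library, and how the authors combined the libraries is not stated. No standard deviation between replicates could therefore be given, no test across samples was possible, and the sequencing depth was unknown. The lowest log2 fold enrichment in the list was 3.001 and the lowest −log10 p 3.01, so sites below either value were not represented. RNA abundance was not known either, so a gene without a peak cannot be called unbound.

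Kinesins are motor proteins that walk along microtubules and, in neurons, carry cargo from the cell body towards the axon tip. Kinesin-1 motors are built from heavy chains, encoded by Kif5a, Kif5b and Kif5c, and light chains that help to choose the cargo. Kinesin-3 motors of the Kif1 group carry precursors of synaptic vesicles and dense-core vesicles. Kif3a and Kif3b form the motor core of kinesin-2 and are joined by the adaptor Kifap3. Kif21a and Kif21b, of the kinesin-4 family, act on microtubule growth as well as on transport.

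MOV10 peaks were found in 4 of the 10 kinesin genes and were concentrated in Kif1b and Kif5c. Kif1b, a kinesin-3 gene, held 35 peaks, and Kif5c, the kinesin-1 heavy chain gene with expression largely in neurons, held 28. Together they accounted for 63 of the 65 peaks (96.9%). Kif1a and Kif5b held 1 peak each. Kif1c, Kif3a, Kif3b, Kif5a, Kif21a and Kif21b held 0. By the same midpoint rule, 8.53% of all 21900 coding genes held a peak, and 15.7% of the 7506 coding genes that span 30 kb or more. In these shares a peak where genes overlap was counted for each of them. All 10 kinesin genes were of that size, with spans from 31.6 to 155.5 kb. The members are few and were chosen by name with earlier results of these data known, so their count is a description of this list only.

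**Figure D1:**
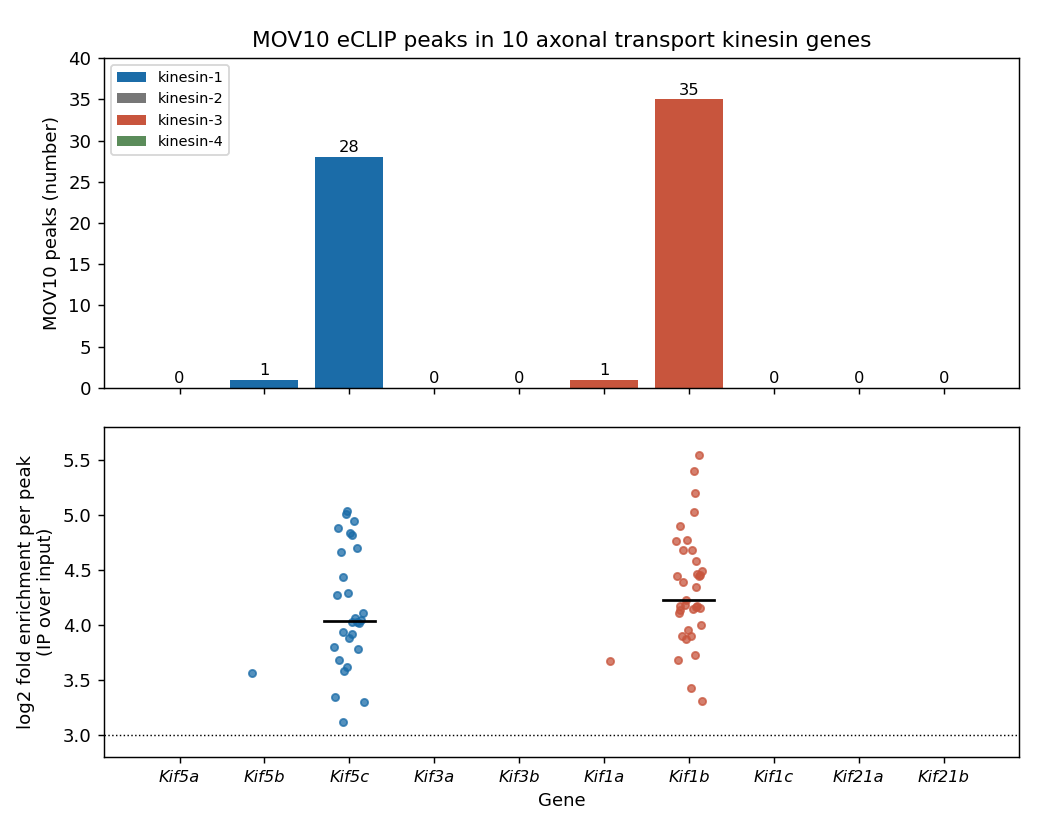
Number of MOV10 peaks in each of the 10 kinesin genes (upper panel, coloured by kinesin family) and the authors' log2 fold enrichment of every peak (lower panel, 1 point per peak, black bar at the median of genes with several peaks, dotted line at 3, near the lowest value of the list). Kif1b with 35 peaks and Kif5c with 28 stand above all other members, which hold 1 or 0.

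Peaks were spread unevenly within families. Kinesin-3 had peaks in 2 of its 3 members, 36 in all, and kinesin-1 in 2 of its 3 members, 29 in all. Within kinesin-1, Kif5c, Kif5b and Kif5a encode closely related heavy chains and held 28, 1 and 0 peaks. Within kinesin-3, Kif1b, Kif1a and Kif1c held 35, 1 and 0. Both kinesin-2 members and both kinesin-4 members lacked a listed peak. All 65 peaks had their midpoint in a single annotated gene. No peak had its midpoint within 10 kb outside either end of any of the 10 gene spans.

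Every peak of a member lay on 1 strand, minus in Kif1a, Kif1b and Kif5b and plus in Kif5c. For Kif1a, Kif1b and Kif5c the RefSeq promoter table gives the gene's strand, and it was the strand of the peaks in 3 of 3 genes. Distances to the 3′ end were taken on that strand, from the peak midpoint to the annotated end of the gene. Of the 65 peaks, 64 (98.5%) were at most 5 kb and 46 (70.8%) at most 2 kb from it. Other coding genes of at least 30 kb held 7807 peaks with the midpoint in a single gene. The window of 5 kb took in 84.3% of these and that of 2 kb 55.5%. Their median distance was 1764.5 nt against 1264 nt for the kinesin peaks. In those genes the strand of the peak was not checked against that of the gene. A peak on the opposite strand would be measured to the other end, so the contrast is approximate. Since 63 of the kinesin peaks came from Kif1b and Kif5c, these shares describe those genes and not 10 independent members. Whether a peak lies in an exon, an intron or an untranslated region was not determined, because the gene table used here holds spans alone.

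Kif1b encodes a motor that exists in a shorter form, described as a carrier of mitochondria, and a longer form that carries synaptic vesicle precursors. The gene (gene ID 16561) lies on chromosome 4 at 149176319 to 149307773, minus strand, a span of 131 kb. Its 35 peaks reached from 87 to 5190.5 nt before the 3′ end, with a median distance of 1454 nt. They occupied a stretch of 5166 nt, 3.93% of the gene's span. All peaks were thus at the far 3′ side of the gene, and the remainder of its span held none.

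The log2 fold enrichment of the Kif1b peaks ranged from 3.31 to 5.54, with a median of 4.23 and quartiles of 4.06 and 4.63. The median corresponds to 18.8-fold on the linear scale. Of the 35 peaks, 27 (77.1%) had a log2 fold enrichment of at least 4 and 4 had at least 5. Peaks in other coding genes had a median of 3.70 (quartiles 3.34 and 4.19), and 33.3% of those 11873 peaks reached 4. The lower quartile of Kif1b was thus above the median of the peaks in other coding genes. This was not particular to Kif1b, since its median ranked 25 among the 72 coding genes with 28 or more peaks.

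The strongest Kif1b peak lay on chromosome 4 at 149177218 to 149177250, 915 nt before the 3′ end, with a log2 fold enrichment of 5.54 (46.7-fold) and a −log10 p of 38.5. Directly upstream of it in the transcript followed peaks at 149177254 to 149177279, with 5.41, and at 149177280 to 149177347, with 5.20. The next strongest, 5.03, lay much closer to the end, at 149176464 to 149176521, 173.5 nt away. The peak nearest to the end, at 149176370 to 149176442, had 4.19. The farthest, at 149181484 to 149181535, was the weakest of the gene by both measures, with 3.31 and a −log10 p of 4.84. It was also the single kinesin peak more than 5 kb from a 3′ end.

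The Kif1b peaks fell into groups when gaps of at least 500 nt were taken as breaks, a spacing chosen after the positions had been seen. The group next to the 3′ end held 30 peaks over 2356 nt, at 87 to 2373.5 nt from the end, with a median log2 fold enrichment of 4.42. After a gap of 1556 nt without peaks, 4 peaks followed at 3980 to 4313.5 nt, with a median of 4.14 and −log10 p values from 16.3 to 22.0. A further gap of 815 nt separated the last peak. Of the 34 spaces between neighbouring peaks, 21 were of 0 nt, so most peaks touched the next. Merging touching peaks left 14 intervals that covered 1817 nt, the longest of 359 nt at 149177254 to 149177612.

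Kif5c encodes a heavy chain of kinesin-1, the motor of fast axonal transport of vesicles and other cargo. The gene (gene ID 16574) lies on chromosome 2 at 49619286 to 49774778, plus strand, a span of 155 kb. Its 28 peaks lay from 134 to 3509.5 nt before the 3′ end, with a median distance of 1333 nt, and all of them were within 5 kb. They occupied 3450 nt, 2.22% of the span. The long non-coding RNA gene Gm46738 overlaps the Kif5c span, but no peak had its midpoint there.

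The log2 fold enrichment of the Kif5c peaks ranged from 3.12 to 5.04, with a median of 4.04 and quartiles of 3.80 and 4.68. The median corresponds to 16.5-fold. At least 4 was reached by 17 of 28 peaks (60.7%) and at least 5 by 2. The ranges of Kif1b and Kif5c overlapped over most of their length, and the difference between their medians was not tested, since touching peaks of 1 transcript are not independent.

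The strongest Kif5c peak lay on chromosome 2 at 49773684 to 49773745, 1063.5 nt before the 3′ end, with 5.04 (32.9-fold) and a −log10 p of 49.9. Close behind were the peak at 49773824 to 49773847, with 5.01, and a separate peak at 49773135 to 49773206, 1607.5 nt from the end, with 4.95. The peak nearest to the end, at 49774595 to 49774693, had 4.67. The farthest, at 49771244 to 49771293, had 3.35 and the lowest −log10 p of the gene, 15.6. It stood alone behind a gap of 962 nt, while the other 27 peaks spread over 2438 nt. Touching peaks merged into 11 intervals that covered 1748 nt. The longest, of 447 nt at 49772256 to 49772702, held 5 peaks between 3.58 and 4.29, and the next, of 408 nt at 49773533 to 49773940, held 7 peaks between 4.03 and 5.04.

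**Figure D2:**
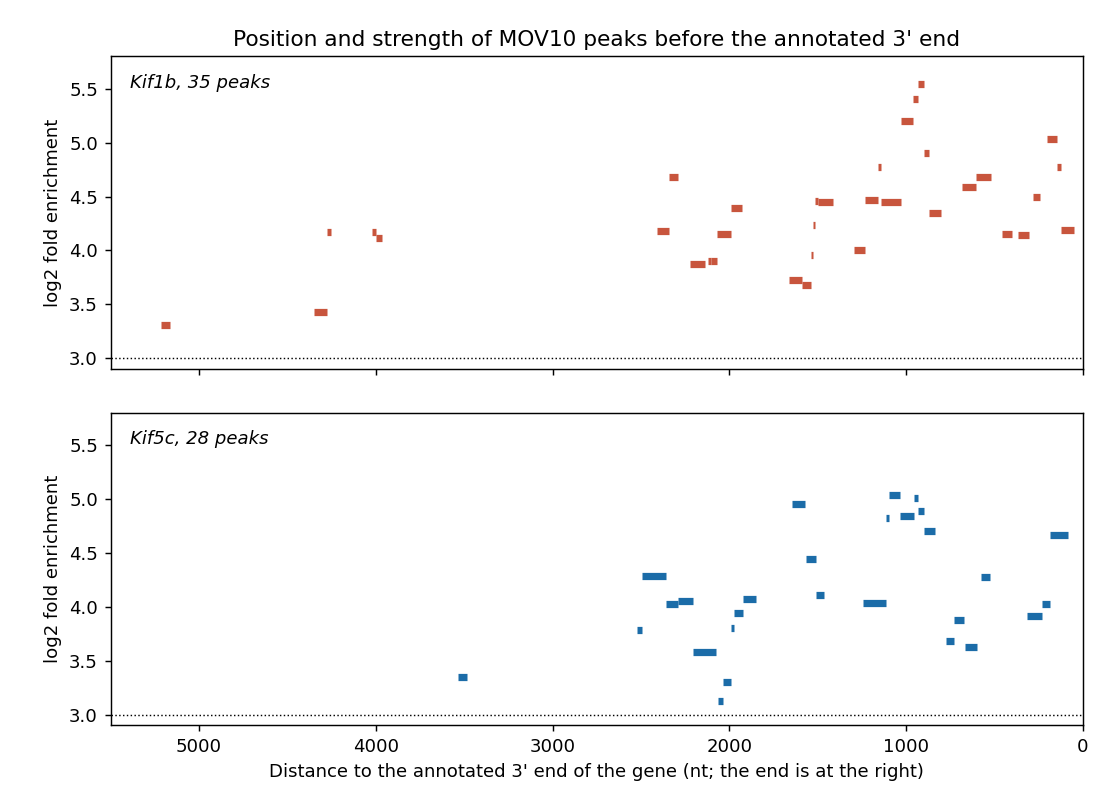
Peaks of Kif1b (upper panel) and Kif5c (lower panel) by distance to the annotated 3′ end in nt (end at the right) and log2 fold enrichment, each horizontal bar spanning the width of 1 peak, with a dotted line at 3. In both genes the highest bars stand near 1 kb from the end, at 915 nt in Kif1b and 1063.5 nt in Kif5c, and a lone weak peak lies farthest away.

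Kif1b and Kif5c shared a similar layout near the 3′ end. In steps of 500 nt from the 3′ end, the median log2 fold enrichment in Kif1b was 4.34 in the first step (6 peaks) and 4.91 in the second (7 peaks). It was 4.45 in the third (5 peaks), 4.09 in the fourth (6 peaks) and 4.03 in the fifth (6 peaks). In Kif5c the corresponding medians were 4.02 (3 peaks), 4.49 (8 peaks), 4.47 (4 peaks), 4.07 (5 peaks) and 3.81 (6 peaks). The highest median thus stood between 500 and 1000 nt from the end in both genes. In Kif5c the next step was nearly equal (4.49 against 4.47) and held the strongest peak, so the place depends on the step edges. Other genes were not divided in this way. With 3 to 8 peaks in a step, and neighbours that touch, this likeness is a description and was not tested.

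Over all peaks of each gene, enrichment and distance from the 3′ end were negatively correlated, although not step by step. The first 500 nt had a lower median than the next in both genes, and the 4 outlying Kif1b peaks at 3980 to 4313.5 nt, with a median of 4.14, were no lower than the steps from 1500 to 2500 nt. Over the 35 Kif1b peaks, Pearson's r between log2 fold enrichment and distance was −0.56 and Spearman's rho −0.60. Over the 28 Kif5c peaks they were −0.43 and −0.31. The points of each gene share libraries and transcript and often touch, so no p is given.

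Over the peaks of each gene, the coefficients between enrichment and −log10 p were positive but weaker in Kif1b. Spearman's rho was 0.33 and Pearson's r 0.15 in Kif1b, against 0.48 and 0.36 in Kif5c. The Kif1b coefficients include its farthest peak, the lowest by both measures (3.31 and 4.84). The leading peaks by enrichment and by −log10 p mostly differed. In Kif1b the 5 peaks with the highest −log10 p, the lowest of them 60.0, were found at distances of 1086.5 to 1625.5 nt, with enrichments from 3.68 to 4.45 (log2). The 5 with the highest enrichment were found at 173.5 to 994.5 nt, and 0 peaks were in both sets. The highest −log10 p of any kinesin peak, 77.4, belonged to the Kif1b peak at 149177859 to 149177907, with a log2 fold enrichment of 3.68. In Kif5c the highest −log10 p, 56.5, was that of the peak at 49772806 to 49772855, with 3.94. The Kif5c peak of highest enrichment was also among its 5 highest by −log10 p, in place 3, and was the 1 peak in both sets. At a given enrichment the −log10 p of a peak depends on its number of reads, which is not in the list.

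**Figure D3:**
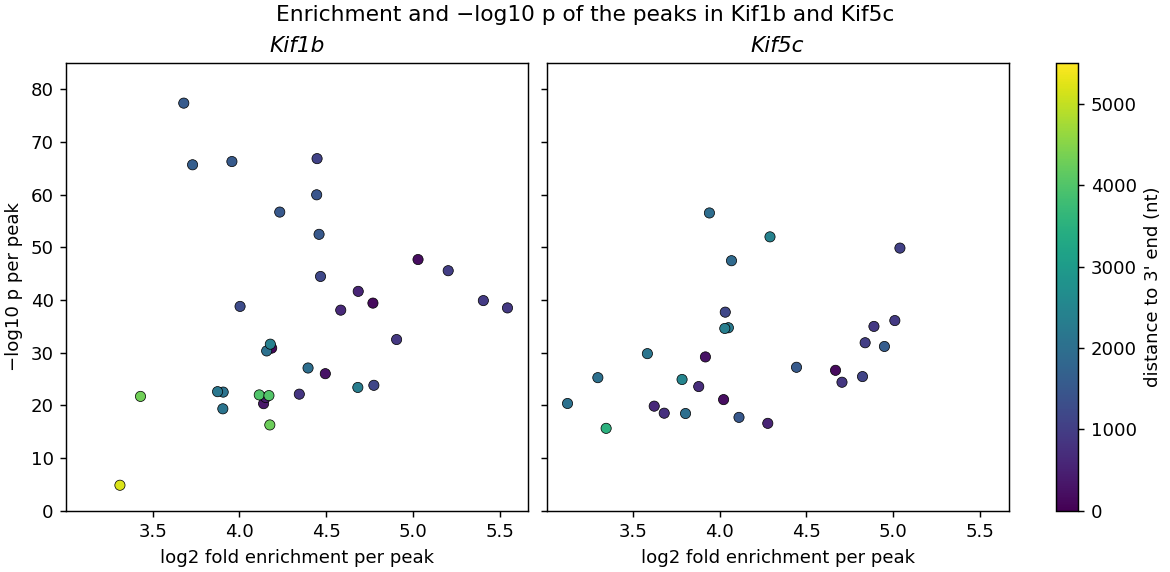
The −log10 p against the log2 fold enrichment of each peak in Kif1b (left) and Kif5c (right), 1 point per peak, coloured by distance to the annotated 3′ end in nt. In Kif1b the 5 points of highest −log10 p have a log2 fold enrichment of 4.45 or less, and the points of highest enrichment have lower −log10 p.

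The single peaks of Kif1a and Kif5b also lay near the 3′ end, which for Kif5b was set by the strand of that peak itself, as the promoter table holds no entry for it. Kif1a, which encodes the main neuronal carrier of synaptic vesicle precursors, lies on chromosome 1 at 93015455 to 93102039. Its peak, at 93015837 to 93015937 and 432 nt before the end, had a log2 fold enrichment of 3.67 (12.7-fold) and a −log10 p of 3.40, near the lowest value of the list, 3.01. Kif5b, the kinesin-1 heavy chain gene expressed in most tissues, lies on chromosome 18 at 6201005 to 6241524. Its peak, at 6201707 to 6201834 and 765.5 nt before the end, had 3.56 (11.8-fold) and a −log10 p of 10.7. Among the 546 coding genes with 1 peak, the median log2 fold enrichment was 3.31 and the median −log10 p 4.69. Both kinesin peaks were above that median in enrichment, and Kif5b alone in −log10 p, where it ranked 37 of 546 against 441 for Kif1a. The Kif1a and Kif5b peaks were within the range of Kif1b and Kif5c in enrichment but below the median of either.

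The members without a listed peak were Kif1c, a kinesin-3 gene of vesicle transport on chromosome 11 (70700396 to 70731970), the kinesin-2 genes Kif3a on chromosome 11 (53565701 to 53604248) and Kif3b on chromosome 2 (153291395 to 153333390), the neuronal kinesin-1 gene Kif5a on chromosome 10 (127225695 to 127266348), and the kinesin-4 genes Kif21a on chromosome 15 (90933275 to 91050382) and Kif21b on chromosome 1 (136131390 to 136178001). Their spans ran from 31.6 kb in Kif1c, the shortest member, to 117 kb in Kif21a, longer than Kif1a, at 86.6 kb, which held a peak. The longest members, Kif5c (155 kb) and Kif1b (131 kb), held the most peaks. A relation between span and peaks was not tested. For these 6 genes the list holds no value at all, so no level of enrichment can be given for them.

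Among all 1868 coding genes with a peak, Kif1b and Kif5c ranked high. The median gene held 3 peaks. Kif1b ranked 35 (shared with 6 other genes) and Kif5c 61 by number of peaks, and 56 and 149 by strongest log2 fold enrichment. By the length covered by merged peaks they ranked 67 and 73, with 1817 and 1748 nt against a median of 333 nt. By the highest −log10 p they ranked 17 and 43. Of the coding genes with a peak, 3.85% held 28 or more peaks, 72 genes in all. That number is Kif5c's own, so Kif1b and Kif5c belong to these genes by construction. A peak where genes overlap was counted for each of them, so some of the ranked genes share peaks. A strongest log2 fold enrichment of at least 5 was reached by 8.83% of coding genes with a peak, and by the same 2 kinesin genes, Kif1b and Kif5c.

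**Figure D4:**
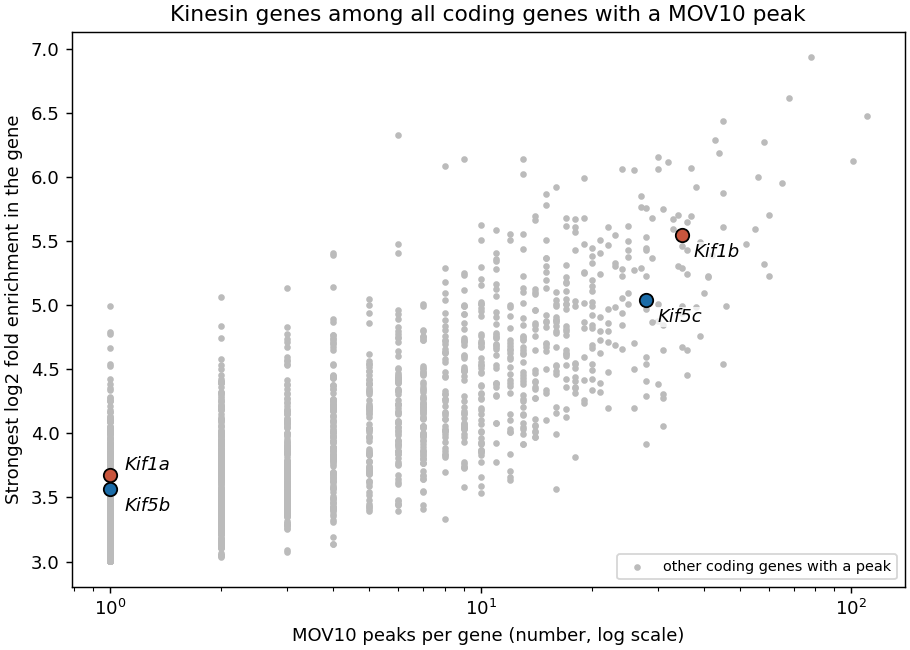
Strongest log2 fold enrichment against the number of peaks (log scale) for each of the 1868 coding genes with a MOV10 peak (grey points), with the 4 kinesin genes that have a peak drawn in the colour of their family. Kif1b (35 peaks, 5.54) and Kif5c (28 peaks, 5.04) lie in the upper right of the cloud, while Kif1a and Kif5b lie among the genes with 1 peak.

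Those 72 genes, a set bounded by the peak number of Kif5c itself, serve here only to place Kif1b and Kif5c among genes with many peaks. Kif1b ranked 28 and Kif5c 48 by strongest log2 fold enrichment, around the median of 5.41. By median log2 fold enrichment they ranked 25 and 38, at 4.23 and 4.04 against a median over the genes of 4.08. By median −log10 p they ranked 11 and 17, at 31.6 and 26.9 against a median over the genes of 17.4. Ordered by median distance to the 3′ end, with the nearest first, Kif5c was at place 7 and Kif1b at place 11. The median over the 72 genes was 2508 nt, on the strand of the peaks, which was not checked for the other genes. These ranks are not tests, and neither gene was at an extreme of any of them.

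The genes most like Kif1b by number of peaks were the 6 others with 35 peaks, among them Larp1, which encodes an RNA-binding protein of mRNA translation, and the N6-methyladenosine demethylase gene Alkbh5. Their strongest log2 fold enrichments were 5.46 and 5.53. The others were lower, at 5.29 in Uhmk1, 4.99 in Fem1b, 4.94 in Ankrd52 and 4.67 in Ttbk1. By strongest enrichment, Kif1b stood between Selenon (5.55, 12 peaks) and the kinase gene Gsk3b (5.55, 23 peaks) above, and Alkbh5 and the signalling gene Smad5 (5.53, 28 peaks) below. The differences between these neighbours have no error attached, so their order is not established.

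The rest of the kinesin superfamily differed from Kif1b and Kif5c in the number of peaks. Of 32 other kinesin genes in the annotation, 4 held a peak, and each held a single one. This share of 12.5% lay between those of all coding genes (8.53%) and of coding genes of 30 kb or more (15.7%). They were Kif3c, the partner of Kif3a in some kinesin-2 motors (4.17), and, named after their values were seen, the mitotic kinesin genes Kif2c (3.47) and Kif11 (3.24) and the kinesin-3 gene Kif13a (3.17). The Kif3c peak lay 3133.5 nt from the 3′ end. Kif2c was the exception in position, with its peak 7953 nt away. Distances in these genes and in the partner genes below follow the strand of the peak, which was not checked against the gene's.

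Some genes of kinesin partners also held peaks, each with fewer than Kif1b or Kif5c. Of 32 genes of kinesin light chains, cargo adaptors and associated proteins, 9 (28.1%) held 41 peaks in all. The share was 8.53% over all coding genes and 15.7% over those of 30 kb or more. The list was chosen with earlier results of these data known, and the difference was not tested. No light chain gene was among the 9, nor was Kifap3. Mapk8ip1, which encodes the JIP1 scaffold that links kinesin-1 to cargo, had the highest enrichment, 5.13 in 3 peaks, but a −log10 p of at most 9.71. Arl8a, a lysosomal GTPase gene of the kinesin adaptor route, reached 4.74 with 4 peaks, and Spag9, which encodes the JIP4 scaffold, 4.26 with 6. Clstn1, the gene of the kinesin-1 cargo adaptor calsyntenin-1, reached 4.18 with 7 peaks. Trak1 and Trak2, adaptors that tie mitochondria to kinesin-1, reached 3.87 with 2 peaks and 3.60 with 3. Hap1, the huntingtin-associated adaptor gene, held 10 peaks up to 3.86 and had the highest −log10 p of these partner genes, 35.2. Arl8b reached 3.85 with 4 peaks, all of them where another gene overlaps.

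The opposing motor, cytoplasmic dynein, which carries cargo back to the cell body, had peaks in 8 of 26 genes of dynein, dynactin and their adaptors found in the annotation (30.8%), 40 peaks in all. The share was 8.53% over all coding genes and 15.7% over those of 30 kb or more, and the difference was not tested. The listed symbol Dynlt1 had no match. Pafah1b1, which encodes the dynein regulator LIS1, held 19 peaks up to 4.59, all within 5 kb of the 3′ end. The dynactin gene Actr1a reached 4.34 with 7 peaks, and the adaptor gene Hook3 4.04 with 9, of which 5 were at most 5 kb from the 3′ end, with the farthest at 9163.5 nt. None of these 8 genes held as many peaks as Kif5c. Spans and transcript levels differ between the lists and the coding genes as a whole. The lists were also chosen with earlier results of these data known, so the shares are descriptions.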

How the data were processed

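The 4 libraries were 2 immunoprecipitates and 2 inputs, and 1 peak list of the whole series was used. Per the labels' protocols, eCLIP followed the published method. The deposited list has no header. Its first value per peak was read as the authors' −log10 p and its second as the authors' log2 fold enrichment, from the ranges and the order of columns in published eCLIP files. If this reading is wrong, statements on strength change and those on position do not. Per the submitters' processing notes, the builds were GRCm38.p6 and mm10. The name of the list marks an irreproducible discovery rate (IDR) step, which combines replicates. What its settings were, and which aligner and peak caller were used, is not given in the sources used here.

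Starts were converted to count from 1, and peaks were assigned by midpoint to gene spans of RefSeq GRCm38.p6 with Python 3.11.15 and pandas 2.3.3. The code of the assignment was run on simulated peaks and recovered the gene and distance of 514 of 514 placed in 176 genes. Those peaks were placed by the same distance rule, on random strands, in genes that overlap no other coding gene. The run therefore checks the code alone, and neither the strand of real genes nor peaks where genes overlap. The members and lists were chosen with earlier results of these data known. Named by rule were all members and the strongest, nearest and farthest peak of each. The rule also took up to 12 genes of the related lists by strongest enrichment, and the rank neighbours of Kif1b. Other peaks, other kinesin superfamily genes and the remaining genes with as many peaks as Kif1b were named after their values were seen. Settings tried were thresholds on enrichment and −log10 p, overlap rules, merging and other windows. No sequence is shown, since none of the peaks was read from a genome here.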

Additional observations from a re-analysis of the deposited data

How the results depend on the processing

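Raising the minimum log2 fold enrichment to 4 left 2 kinesin genes with a peak, Kif1b and Kif5c, in place of 4, with 44 peaks and a median of 4.45, and put 100% of them within 5 kb of the 3′ end. A −log10 p of at least 5 left 63 peaks in 3 genes, with 100% in that window. The window itself set the share, at 70.8% for 2 kb and 100% for 10 kb. Merging touching peaks left 27 intervals in place of 65 peaks. The other overlap rules (any overlap of 1 nt, the whole peak in the span, a single gene) gave 65 peaks in 4 genes. The strongest peak per gene had a median of 4.36 over 4 genes. No gene lay near it, with Kif5b at 3.56, Kif1a at 3.67, Kif5c at 5.04 and Kif1b at 5.54. No paired analysis was possible because the list holds no value per library. The depth behind each peak is unknown, so counting error could not be given.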
